A study of Homo sapiens with 3 samples.

Results

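The genes described here are 38 genes of the G1/S transition and of DNA replication, taken by symbol from the 19225 genes of a deposited RNA table. They were measured in 5637 cells, an established human bladder cancer line whose genotype is labelled wild type. One library came from cells labelled siCDCA3-1, given siRNA against CDCA3, one from cells labelled siCDCA3-2, also given siRNA against CDCA3, and one from cells given a control siRNA (siNC). All were transfected with the same lipid reagent. Whether the numbers 1 and 2 mark different siRNAs or repeats with one siRNA is not stated in the labels, and nothing gives how long after transfection RNA was taken. Both carry one treatment label, so they form a group of 2 libraries set against the single siNC library. The series asks which genes lie downstream of CDCA3.

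Cells that pass from G1 into S phase release E2F transcription factors from the retinoblastoma protein, and E2F then drives the genes of DNA replication. Origins are licensed in G1 when the origin recognition complex, CDC6 and CDT1 load the MCM2 to MCM7 helicase. In S phase the helicase is activated by CDC45 and the GINS complex, polymerases copy the strands, ribonucleotide reductase and thymidylate enzymes supply deoxynucleotides, and CAF-1 places histones behind the fork. Bladder cancers often carry a disrupted retinoblastoma pathway. CDCA3 itself is best known for its part in entry into mitosis, a later step of the cycle.

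The libraries held from 40420563 to 62389922 counts over genes. Expression is given as the deposited RPKM, reads scaled to transcript length and to a library total, which allows levels of different genes to be compared. CDCA3 had an RPKM of 0.574 in siCDCA3-1 and 1.40 in siCDCA3-2, against 5.52 in siNC, so it was at 10.4% (95% counting interval 8.45% to 12.6%) and 25.3% (22.6% to 28.3%) of the siNC level. The basal keratin gene KRT5 had RPKM of 218 in siCDCA3-1 and 199.9 in siCDCA3-2, against 421 in siNC, and KRT17 had 210.1 in siCDCA3-1 and 138 in siCDCA3-2, against 429 in siNC. TP63, a basal transcription factor, had 6.30 in siCDCA3-1 and 12.4 in siCDCA3-2, against 16.04 in siNC. The other listed epithelial genes were not lower in both siCDCA3 libraries. KRT8 had 385 in siCDCA3-1 and 238 in siCDCA3-2, against 246 in siNC. KRT18 had 162 in siCDCA3-1 and 130 in siCDCA3-2, against 151 in siNC. CDH1 had 21.5 in siCDCA3-1 and 13.4 in siCDCA3-2, against 17.2 in siNC. EPCAM had 17.4 in siCDCA3-1 and 45.4 in siCDCA3-2, against 27 in siNC. Among the markers of other cells, the leukocyte genes PTPRC and CD3E had at most 10 counts in any library. The other listed leukocyte genes were present, LAPTM5 between 11.7 and 22.3 RPKM and CD68 between 0.993 and 1.94 RPKM. The collagen gene COL1A1 lay between 2.26 and 8.33 RPKM. The other fibroblast and endothelial genes were near 0, with at most 19 counts of COL1A2, 14 of COL3A1 and 19 of PECAM1 in any library, and at most 0.163 RPKM of PDGFRB. The part of these differences in the results was not tested.

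All 38 genes were expressed, averaging an RPKM of 1 or more, and they spanned a wide range. PCNA was the highest of them, with RPKM of 71.6 in siCDCA3-1 and 66.9 in siCDCA3-2, against 72.6 in siNC, and MCM7 and TK1 took the next places in every library. E2F2 was the lowest, with 1.07 in siCDCA3-1 and 0.899 in siCDCA3-2, against 1.07 in siNC. The summed RPKM of the 38 genes was 577 in siCDCA3-1 and 682 in siCDCA3-2, against 615 in siNC. In bulk RNA, fewer cells in S phase and less RNA of these genes per cell cannot be told apart. The siNC library lay between the siCDCA3 libraries, as it did for 24 of the single genes. Of all genes tested, 23.6% were above siNC in both siCDCA3 libraries and 27.8% below it in both. For the rest, siNC lay between them or level with one of them.

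**Figure D1:**
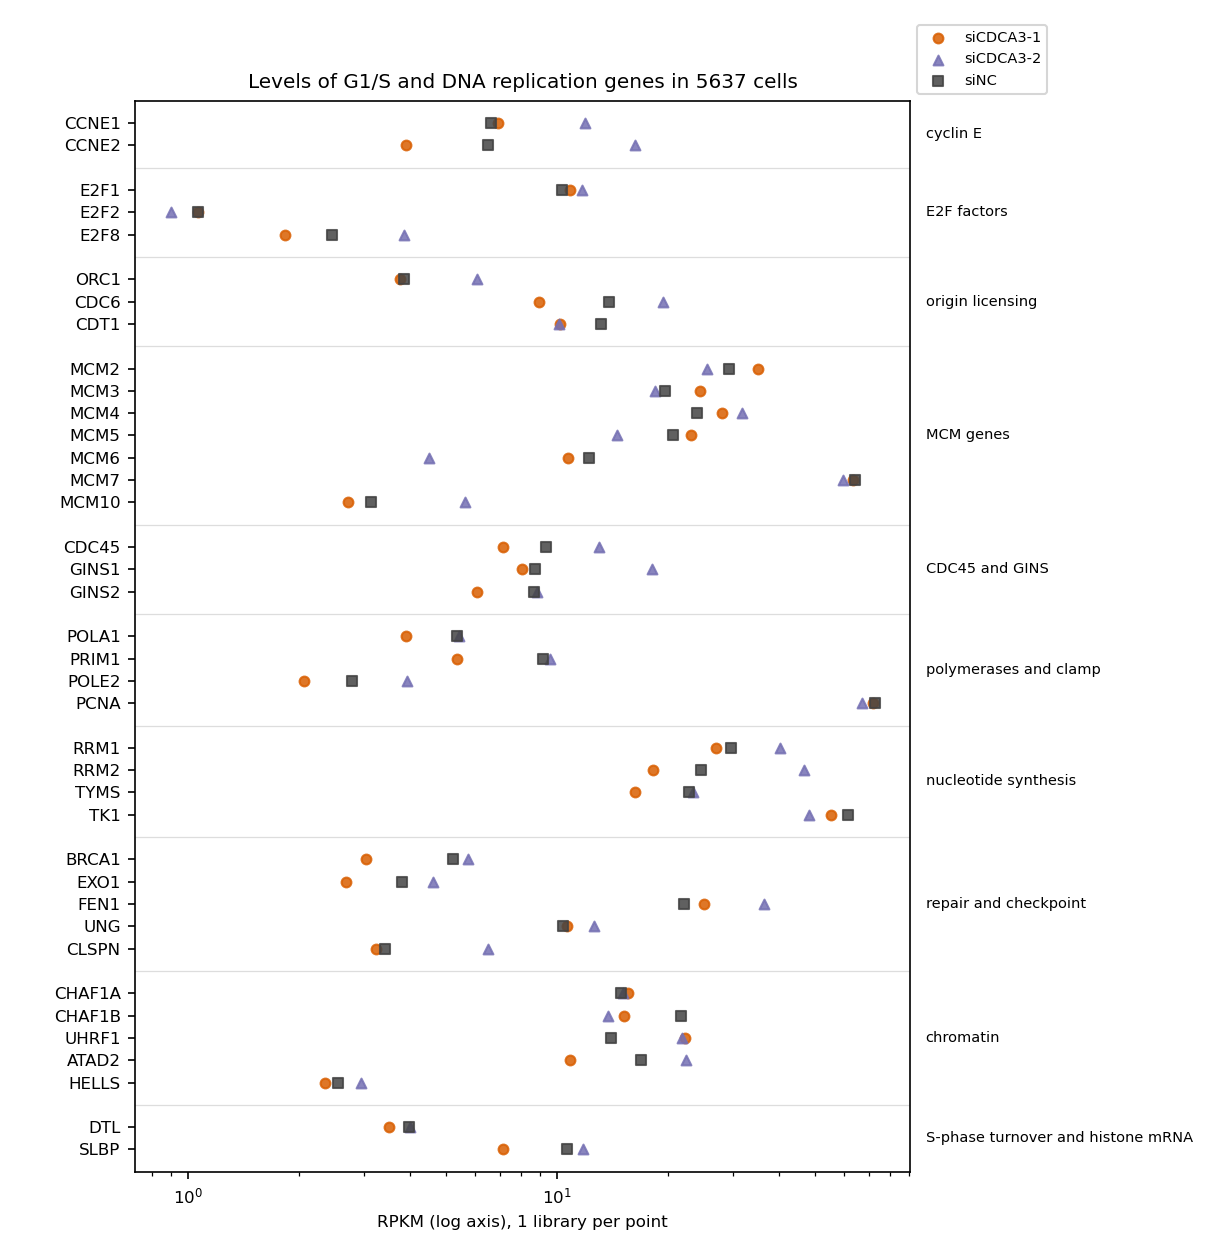
RPKM (log axis) of the 38 genes in siCDCA3-1 (circles), siCDCA3-2 (triangles) and siNC (squares), 1 library per point, ordered by role. For most genes outside MCM2 to MCM7 the triangle lies to the right of the circle, while for MCM6 it lies far to the left (10.7 in siCDCA3-1 and 4.50 in siCDCA3-2, against 12.2 in siNC).

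No gene of the 38 passed the test of siCDCA3 against siNC (edgeR, quasi-likelihood, Benjamini-Hochberg over 10153 genes, adjusted p = 0.9997 for each). Of all genes tested, 0.0295% passed. Not one of the 38 had an unadjusted p under 0.05 in edgeR, where 134 of the 10153 genes did. DESeq2 and limma also called 0 of the 38. Over all genes DESeq2 called 2 higher and 8 lower, and limma called 0. The log2 fold changes of the group ran from -0.64 for MCM6 to 0.67 for UHRF1, whose standard errors were 0.57 and 0.51. The siCDCA3 pair gives the test its 1 residual degree of freedom, and siNC is assumed to vary as they do, so missing the threshold is no sign of equal levels. Everything below is therefore given per library, as differences of log2(RPKM + 1) with no test. The added 1 understates differences of low genes. Counting intervals cover counting error only.

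The siCDCA3 libraries lay on opposite sides of siNC. In siCDCA3-1 the 38 genes had a median difference from siNC of -0.14, compared with -0.067 over all genes tested, and 28 of them were lower and 10 higher, where 58.6% of all genes were lower. In siCDCA3-2 the median was 0.16, compared with 0.046 over all genes, and 28 were higher and 10 lower, where 54.4% of all genes were higher. These comparisons share the siNC library. Set directly against each other, siCDCA3-1 minus siCDCA3-2 had a median of -0.48 over the 38 genes and -0.098 over all genes. The scaling bears on these medians: with TMM factors, the median of siCDCA3-1 minus siCDCA3-2 over all genes moved to 0.018, and the medians of the 38 genes became -0.069 in siCDCA3-1, 0.11 in siCDCA3-2 and -0.35 between them.

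By size on the log2(RPKM + 1) scale, 4 of the 38 genes were at least 1.5-fold lower in siCDCA3-1 than in siNC (7.22% of all genes were) and 1 was higher (3.92% of all genes). In siCDCA3-2, 8 were at least 1.5-fold higher than in siNC (9.6% of all genes) and 2 lower (9.63%). Between the siCDCA3 libraries, 15 of the 38, or 39.5%, were at least 1.5-fold lower in siCDCA3-1 than in siCDCA3-2, where the share of all genes was 17.6%, and 2 were higher, where the share was 10.5%. The median signed difference between the siCDCA3 libraries (-0.48) was also larger in size than that of siCDCA3-1 (-0.14) or siCDCA3-2 (0.16) from siNC. Genes of opposite sign offset each other in these medians. With the siNC value outside both siCDCA3 values, 7 genes lay higher in both (23.6% of all genes) and 7 lower in both (27.8% of all genes). A difference of at least 1.5-fold in both libraries was seen for UHRF1 alone among higher genes (0.611% of all genes) and for 0 lower genes (2% of all genes), and UHRF1 no longer met it after TMM rescaling.

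**Figure D2:**
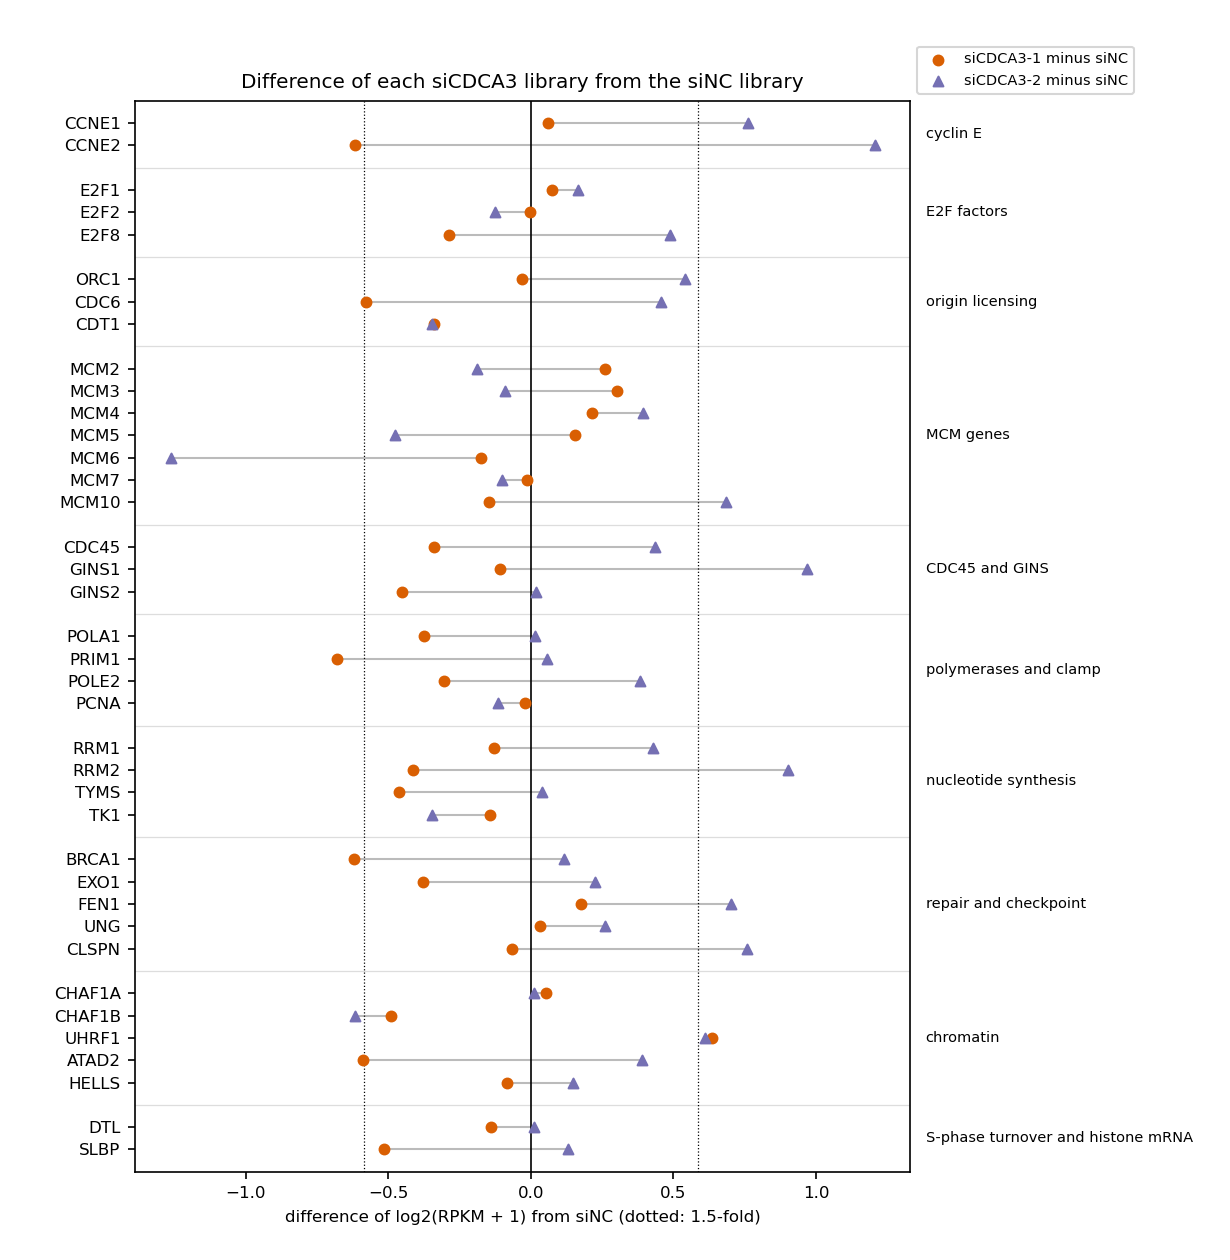
Difference of log2(RPKM + 1) from siNC for siCDCA3-1 (circles) and siCDCA3-2 (triangles), 1 library each, joined by a line for each gene; dotted lines mark 1.5-fold. The line crosses 0 for 24 of the 38 genes, and UHRF1, CDT1 and CHAF1B have both points close together on one side. Of all genes tested, 23.6% were above siNC in both siCDCA3 libraries and 27.8% below it in both.

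Replication genes are classic E2F targets, so the promoters were searched for the E2F site, written as TTTCCCGC, TTTCGCGC, TTTGCCGC or TTTGGCGC on either strand, overlapping matches counted. The RefSeq table of promoter windows (GRCh38.p14, 250 bases before to 50 after a gene's start) held 33 of the 38 genes, and the first listed window was read for each. A match was present in 19 of the 33 windows, or 57.6%, compared with 3.33% of the windows of 27305 genes and 5.79% of those of the genes tested here. The CCAAT box, written as CCAAT, was present in 63.6% of the 33, 35.7% of all windows and 37% of those of the genes tested. The CHR element of later cell cycle genes, written as TTTGAA or TTTAAA, was present in 12.1%, 24.3% and 14.6%. For CHR the 33 were thus near the share of the genes tested. Genes with an E2F match had a median of -0.15 for siCDCA3-1 minus siCDCA3-2 (n = 19, range -1.08 to 1.09). Those without one had -0.61 (n = 14, range -1.31 to 0.20), so the ranges overlapped. The genes with a match include MCM2, MCM3, MCM6 and MCM7, each higher in siCDCA3-1 than in siCDCA3-2. Whether a match bears on the difference was not tested. A match is a description of the letters, not a bound site.

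The windows below are those of the 2 genes with the largest positive and the 3 with the largest negative difference between the siCDCA3 libraries among genes in the table. MCM6 (chr2:135876394-135876693, minus strand) and MCM2 (chr3:127598161-127598460, plus strand) were higher in siCDCA3-1 than in siCDCA3-2, while RRM2 (chr2:10122489-10122788, plus strand, the first of 2 listed windows), GINS1 (chr20:25407423-25407722, plus strand) and CDC6 (chr17:40287629-40287928, plus strand) were lower. Sequences run 5′ to 3′ and capitals mark E2F matches. In MCM6 the 4 matches form 2 overlapping pairs, and in MCM2 the 2 matches overlap just after the start. GINS1 and CDC6 have 1 match each, also just after the start. RRM2 has none, but holds 3 CCAAT boxes and 1 CHR.
MCM6: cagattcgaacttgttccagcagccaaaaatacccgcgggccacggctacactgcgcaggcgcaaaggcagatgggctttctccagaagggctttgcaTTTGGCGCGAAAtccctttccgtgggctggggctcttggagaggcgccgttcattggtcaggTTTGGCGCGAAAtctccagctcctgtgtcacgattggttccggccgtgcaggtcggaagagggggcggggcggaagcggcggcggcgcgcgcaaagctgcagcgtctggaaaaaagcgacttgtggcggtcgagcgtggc
MCM2: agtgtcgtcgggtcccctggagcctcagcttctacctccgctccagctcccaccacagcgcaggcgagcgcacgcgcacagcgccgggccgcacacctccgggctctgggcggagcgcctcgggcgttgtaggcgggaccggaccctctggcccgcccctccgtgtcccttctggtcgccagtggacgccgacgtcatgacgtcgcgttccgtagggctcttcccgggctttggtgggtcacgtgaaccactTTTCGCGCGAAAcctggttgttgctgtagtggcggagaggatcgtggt
RRM2: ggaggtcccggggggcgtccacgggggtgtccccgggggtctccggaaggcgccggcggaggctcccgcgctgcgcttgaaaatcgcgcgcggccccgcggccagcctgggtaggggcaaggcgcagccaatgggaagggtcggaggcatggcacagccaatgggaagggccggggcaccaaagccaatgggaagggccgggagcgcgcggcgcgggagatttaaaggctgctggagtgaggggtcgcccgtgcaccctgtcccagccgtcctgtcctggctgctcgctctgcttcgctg
GINS1: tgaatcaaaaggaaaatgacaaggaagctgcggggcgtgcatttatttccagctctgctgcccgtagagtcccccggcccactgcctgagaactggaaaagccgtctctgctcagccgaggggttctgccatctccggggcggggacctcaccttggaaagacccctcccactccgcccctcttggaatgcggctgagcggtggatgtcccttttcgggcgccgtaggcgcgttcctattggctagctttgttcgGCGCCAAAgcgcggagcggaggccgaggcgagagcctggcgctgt
CDC6: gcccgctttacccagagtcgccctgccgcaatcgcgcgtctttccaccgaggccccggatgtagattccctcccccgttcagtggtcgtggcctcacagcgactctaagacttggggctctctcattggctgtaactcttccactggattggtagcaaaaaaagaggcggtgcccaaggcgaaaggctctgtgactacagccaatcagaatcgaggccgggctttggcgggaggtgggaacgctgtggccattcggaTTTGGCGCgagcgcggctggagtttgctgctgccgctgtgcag

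Cyclin E activates CDK2 to drive cells into S phase, and both cyclin E genes were at their highest in siCDCA3-2. CCNE2 had RPKM of 3.90 in siCDCA3-1 and 16.3 in siCDCA3-2, against 6.50 in siNC. It was at 59.9% (55.7% to 64.4%) of the siNC level in siCDCA3-1 and at 251% (239% to 263%) in siCDCA3-2, with siNC between them. Its exons overlap those of INTS8 on the other strand, so its reads may be shared. This was the widest distance between the siCDCA3 libraries of any of the 38 genes, -1.82 on the log2 scale for siCDCA3-1 minus siCDCA3-2. CCNE1 had 6.94 in siCDCA3-1 and 11.9 in siCDCA3-2, against 6.61 in siNC, so siCDCA3-1 lay near siNC and siCDCA3-2 lay 0.76 above it on the log2 scale. The edgeR log2 fold changes were 0.61 (SE 0.67) for CCNE2 and 0.50 (SE 0.54) for CCNE1, and that of CCNE2 was -0.66 without siCDCA3-2.

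E2F1 was nearly level over the libraries, while E2F8 was not. E2F1, an activator that opens the S-phase programme, had RPKM of 10.9 in siCDCA3-1 and 11.7 in siCDCA3-2, against 10.3 in siNC. E2F2, another activator, was low in all libraries, as given above. E2F8, an atypical repressor that is itself switched on in S phase, had 1.84 in siCDCA3-1 and 3.86 in siCDCA3-2, against 2.47 in siNC. E2F8 was thus at 47.7% (43.8% to 51.9%) in siCDCA3-1 of its siCDCA3-2 level, while E2F1 was at 93.3% (89.2% to 97.6%). The median of the 3 genes for siCDCA3-1 minus siCDCA3-2 was -0.092 and turned to 0.038 after TMM rescaling.

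Of the licensing genes, ORC1 and CDC6 were high in siCDCA3-2 and CDT1 was not. CDC6, which loads the helicase with the origin recognition complex, had RPKM of 8.94 in siCDCA3-1 and 19.3 in siCDCA3-2, against 13.8 in siNC. ORC1, the subunit of that complex that varies over the cell cycle, had 3.76 in siCDCA3-1 and 6.07 in siCDCA3-2, against 3.86 in siNC. CDT1, the other loader, had 10.2 in siCDCA3-1 and 10.2 in siCDCA3-2, against 13.2 in siNC. It was thus lower in both siCDCA3 libraries, at 77.4% (73.8% to 81.1%) and 77.1% (73.96% to 80.4%) of siNC, and its edgeR log2 fold change was -0.36 (SE 0.47, adjusted p = 0.9997).

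The MCM2 to MCM7 genes, whose proteins form the ring of the replicative helicase in equal numbers, ran the other way from most of the list. Their median for siCDCA3-1 minus siCDCA3-2 was 0.42, compared with -0.56 for the other 32 genes, and it stayed positive after TMM rescaling (0.56) and after subtraction of a GC trend (0.37). MCM6 carried the widest gap, with RPKM of 10.7 in siCDCA3-1 and 4.50 in siCDCA3-2, against 12.2 in siNC. In siCDCA3-2 it was at 36.9% (35.2% to 38.6%) of siNC, and in siCDCA3-1 at 87.7% (84.3% to 91.2%). MCM5 had 23.1 in siCDCA3-1 and 14.5 in siCDCA3-2, against 20.6 in siNC. MCM2 had 35.1 in siCDCA3-1 and 25.5 in siCDCA3-2, against 29.2 in siNC, while MCM3 had 24.4 in siCDCA3-1 and 18.4 in siCDCA3-2, against 19.6 in siNC. For these 3 genes siNC lay between the siCDCA3 libraries, with siCDCA3-1 the higher.

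MCM4 and MCM7 did not share that order. MCM4 had RPKM of 28.0 in siCDCA3-1 and 31.8 in siCDCA3-2, against 23.9 in siNC, and was above siNC in both. MCM7 had 63.4 in siCDCA3-1 and 59.6 in siCDCA3-2, against 64.0 in siNC, with differences from siNC of -0.012 and -0.10 on the log2 scale. The make-up of the summed RPKM of the ring genes differed most, in relative terms, at MCM6 and MCM4. MCM6 held 5.80% of the sum in siCDCA3-1 and 2.92% in siCDCA3-2, against 7.20% in siNC, and MCM4 held 15.1% in siCDCA3-1 and 20.6% in siCDCA3-2, against 14.1% in siNC. The summed RPKM of the 6 genes was 185 in siCDCA3-1 and 154 in siCDCA3-2, against 169 in siNC. The edgeR log2 fold change of MCM6 was -0.64 (SE 0.57), with an adjusted p of 0.9997 and an unadjusted p of 0.2775.

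**Figure D3:**
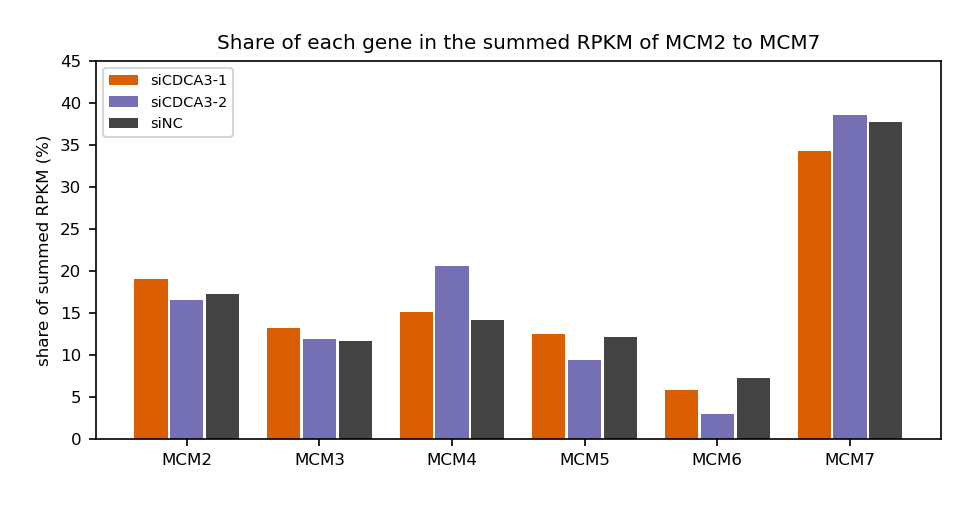
Share (%) of each gene in the summed RPKM of MCM2 to MCM7 in siCDCA3-1, siCDCA3-2 and siNC, 1 library per bar. MCM6 is the smallest share in every library and is 2.92% in siCDCA3-2, while MCM4 is 20.6% there.

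MCM10, CDC45 and the GINS genes, which act when the loaded helicase is switched on, were highest in siCDCA3-2. GINS1 had RPKM of 8.04 in siCDCA3-1 and 18.1 in siCDCA3-2, against 8.75 in siNC, and was at 207% (199% to 215%) of siNC in siCDCA3-2. MCM10, a firing factor that is not part of the ring, had 2.73 in siCDCA3-1 and 5.63 in siCDCA3-2, against 3.13 in siNC. CDC45 had 7.17 in siCDCA3-1 and 12.96 in siCDCA3-2, against 9.33 in siNC. GINS2 differed from GINS1, although their proteins sit in one complex. It had 6.09 in siCDCA3-1 and 8.81 in siCDCA3-2, against 8.69 in siNC, so siCDCA3-2 and siNC lay together. All 3 of CDC45, GINS1 and GINS2 were lower in siCDCA3-1 than in siCDCA3-2, while 5 of the 6 ring genes were higher, MCM4 being the exception. After subtraction of the GC trend the same 3 genes were lower. So were 2 of the 6 ring genes, as MCM7 then stood at -0.0002.

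The polymerase genes PRIM1, POLA1 and POLE2 were lowest in siCDCA3-1. PRIM1, the primase subunit that makes RNA primers, had RPKM of 5.35 in siCDCA3-1 and 9.60 in siCDCA3-2, against 9.18 in siNC, and was at 58.3% (53.6% to 63.4%) of siNC in siCDCA3-1. Exons of PRIM1 overlap those of NACA on the same strand, so its reads may be shared. POLA1, the catalytic subunit of the polymerase that extends those primers, had 3.91 in siCDCA3-1 and 5.43 in siCDCA3-2, against 5.37 in siNC. POLE2, a subunit of the leading-strand polymerase, had 2.06 in siCDCA3-1 and 3.93 in siCDCA3-2, against 2.78 in siNC. PCNA, the sliding clamp, had a difference from siNC of -0.021 in siCDCA3-1 and -0.12 in siCDCA3-2. The median difference of the 4 genes in siCDCA3-2 was 0.036, and -0.016 after TMM rescaling. After subtraction of the GC trend it was -0.195, with 3 of the 4 genes below siNC.

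In siCDCA3-2 the reductase genes RRM2 and RRM1 lay above siNC, by 0.90 and 0.43 on the log2 scale. The thymidine enzyme genes did not rise so, with 0.037 for TYMS and -0.35 for TK1. In siCDCA3-1 the 4 genes did not divide this way, with -0.41 for RRM2, -0.46 for TYMS, -0.13 for RRM1 and -0.14 for TK1. RRM2, the subunit whose level sets reductase activity in S phase, had RPKM of 18.2 in siCDCA3-1 and 46.6 in siCDCA3-2, against 24.5 in siNC. It was at 74.1% (71.8% to 76.4%) of siNC in siCDCA3-1 and at 190% (186% to 195%) in siCDCA3-2. Its partner RRM1, the large subunit, had 27.01 in siCDCA3-1 and 40.2 in siCDCA3-2, against 29.6 in siNC. TYMS, which makes thymidylate, had 16.2 in siCDCA3-1 and 23.4 in siCDCA3-2, against 22.8 in siNC. TK1, the salvage kinase for thymidine, had 55.4 in siCDCA3-1 and 48.0 in siCDCA3-2, against 61.3 in siNC, and was below siNC in both. TK1 was the only one of the 4 that was higher in siCDCA3-1 than in siCDCA3-2.

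All 5 repair and checkpoint genes were lower in siCDCA3-1 than in siCDCA3-2, also after TMM rescaling and after subtraction of a GC trend. BRCA1, which acts in homologous recombination, had RPKM of 3.05 in siCDCA3-1 and 5.75 in siCDCA3-2, against 5.22 in siNC. CLSPN, the adaptor that passes the replication stress signal to CHK1, had 3.23 in siCDCA3-1 and 6.49 in siCDCA3-2, against 3.43 in siNC. FEN1, the nuclease that trims Okazaki fragments, had 25.04 in siCDCA3-1 and 36.4 in siCDCA3-2, against 22.03 in siNC. Exons of FEN1 overlap those of FADS2 on the same strand, so its reads may be shared. BRCA1 in siCDCA3-1 and CLSPN and FEN1 in siCDCA3-2 were therefore the libraries away from the rest. EXO1, a nuclease that resects DNA ends, had 2.69 in siCDCA3-1 and 4.61 in siCDCA3-2, against 3.80 in siNC. UNG, which removes uracil from DNA, had 10.6 in siCDCA3-1 and 12.6 in siCDCA3-2, against 10.4 in siNC.

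Among the chromatin genes, UHRF1 and CHAF1B were the pair with the clearest separation of the siCDCA3 libraries from siNC, in opposite directions. UHRF1, which guides DNA methylation to newly copied strands, had RPKM of 22.2 in siCDCA3-1 and 21.9 in siCDCA3-2, against 13.98 in siNC. It was at 159% (154% to 164%) and 156% (152% to 161%) of siNC, and its edgeR log2 fold change of 0.67 (SE 0.51, adjusted p = 0.9997) was the highest of the 38. CHAF1B, the middle subunit of CAF-1, had 15.2 in siCDCA3-1 and 13.8 in siCDCA3-2, against 21.7 in siNC, at 69.8% (67.0% to 72.7%) and 63.6% (61.3% to 65.9%) of siNC. Its edgeR log2 fold change was -0.57 (SE 0.47, adjusted p = 0.9997). CHAF1A, the large subunit of the same complex, did not separate, with 15.6 in siCDCA3-1 and 15.1 in siCDCA3-2, against 14.95 in siNC.

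ATAD2 and HELLS, also chromatin genes, and DTL and SLBP, which act in S-phase turnover and on histone mRNA, were lower in siCDCA3-1 than in siCDCA3-2, but HELLS (0.29) and DTL (0.19) turned higher after subtraction of the GC trend. ATAD2, a bromodomain ATPase induced by E2F, had RPKM of 10.9 in siCDCA3-1 and 22.4 in siCDCA3-2, against 16.8 in siNC. HELLS, a chromatin remodeller, had 2.35 in siCDCA3-1 and 2.94 in siCDCA3-2, against 2.56 in siNC. DTL, which directs the destruction of CDT1 in S phase, had 3.51 in siCDCA3-1 and 4.002 in siCDCA3-2, against 3.97 in siNC. SLBP, which binds the stem-loop of histone mRNAs, had 7.14 in siCDCA3-1 and 11.7 in siCDCA3-2, against 10.6 in siNC. For DTL and SLBP the siCDCA3-2 library lay near siNC and siCDCA3-1 below it.

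The distance between the siCDCA3 libraries moved with the base composition of the transcripts. Across the 38 genes, the Spearman correlation of GC content with siCDCA3-1 minus siCDCA3-2 was 0.57, and it was 0.40 over 9831 genes tested that had a GC value. All points come from the same 3 libraries. In the decile of all genes with the lowest GC (median 37.7%) the median difference was -0.46, in the next-to-highest decile (median 60.8%) it was 0.15, and in the highest (median 64.6%) it was 0.078. CCNE2, with 35.4% GC, and RRM2, with 43.5%, lie toward the low end, and MCM2, with 58.1%, toward the high end. MCM6 does not follow this order, with 43.1% GC and a difference of 1.09. Before any adjustment, 26 of the 38 genes were lower and 12 higher in siCDCA3-1 than in siCDCA3-2. Of all genes tested, 57.8% were lower and 42.2% higher. After a lowess trend on GC over all genes was subtracted, a step chosen after the data were seen, the median of the 38 genes was -0.27, with 28 lower and 10 higher. Of the 9831 genes, 4842 were lower after it. CCNE2 then stood at -1.28, RRM2 at -1.03 and MCM6 at 1.39.

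**Figure D4:**
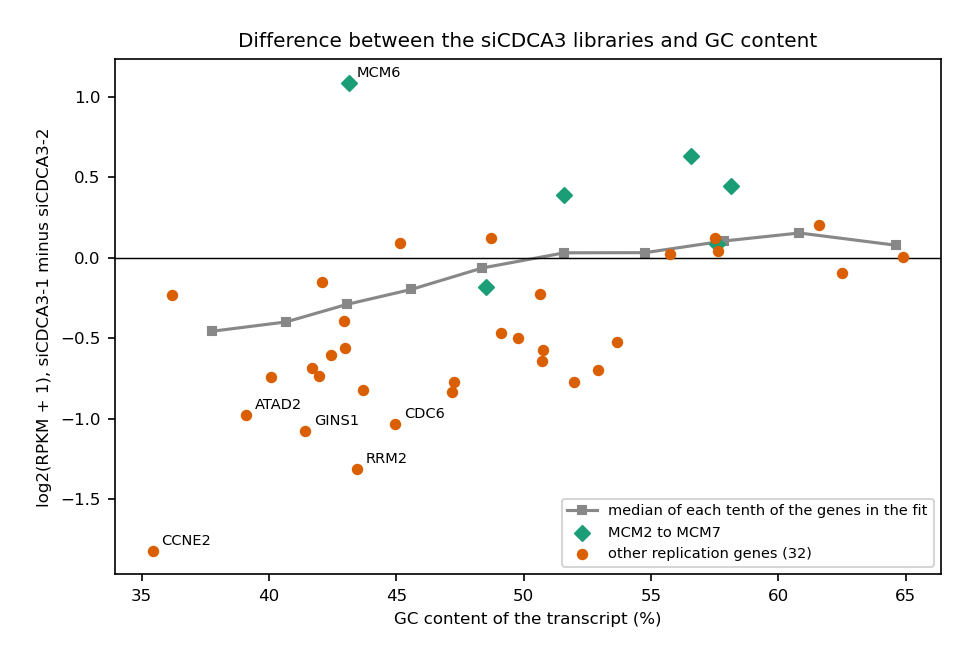
Difference of log2(RPKM + 1), siCDCA3-1 minus siCDCA3-2, against transcript GC content (%) for MCM2 to MCM7 (diamonds) and the other 32 genes (circles), with the median of each GC decile of all genes tested (squares and line). Most circles lie below the line and MCM6 lies furthest above it.

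Of a list of 73 further genes of the same pathway, 72 averaged an RPKM of 1 or more. Of all 10153 genes tested, edgeR called 0 higher and 3 lower, DESeq2 called 2 higher and 8 lower, and limma called 0. Not one of the 72 passed edgeR, DESeq2 or limma. Their median difference was -0.23 in siCDCA3-1 and 0.31 in siCDCA3-2, and -0.55 between those libraries, where 62 of 72 were lower in siCDCA3-1, as were 57.8% of all genes. Among the 69 of these genes with a GC value, that median was -0.59, and -0.26 with 53 lower after subtraction of the GC trend. Of all 9831 genes with a GC value, 4842 were lower after it. The largest positive edgeR log2 fold changes were those of CDC25A, the phosphatase that activates CDK2 (0.75), and SKP2, which targets the CDK inhibitor p27 (0.60). CDC25A had RPKM of 4.16 in siCDCA3-1 and 8.11 in siCDCA3-2, against 3.62 in siNC. The largest negative ones were those of RMI2, a partner of the BLM helicase (-0.94), the clamp loader gene RFC4 (-0.70) and RRM2B, the p53-induced reductase subunit (-0.59). RRM2B was low in siCDCA3-1 alone, with RPKM of 0.504 in siCDCA3-1 and 1.63 in siCDCA3-2, against 1.58 in siNC, and its log2 fold change was -0.017 without siCDCA3-1 and -1.56 without siCDCA3-2. RMI2 resembled MCM6 in order, with RPKM of 3.83 in siCDCA3-1 and 1.49 in siCDCA3-2, against 5.24 in siNC. RFC4 had 6.81 in siCDCA3-1 and 8.78 in siCDCA3-2, against 12.7 in siNC. Each of these 5 genes had an adjusted p of 0.9997 in edgeR.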

How the data were processed

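RNA of 3 libraries was read in pairs after removal of ribosomal RNA. Per the submitters' processing notes, Trimmomatic 0.36, FastQC, HISAT2 and HTSeq were used, and mm10 and hg38 are listed without a role. The sources used here do not state a strand setting, and exons of 8 of the 38 genes overlap a protein-coding gene on the other strand in GENCODE 29 (CCNE2, CHAF1A, FEN1, GINS2, MCM2, MCM7, PRIM1 and TYMS), so their levels are uncertain. On the same strand, exons of PRIM1 overlap NACA and AC117378.1, and exons of FEN1 overlap FADS2. Reads of PRIM1 and FEN1 may therefore be shared whatever the strand setting. The deposited table gives, per the file headers, a read count and an RPKM for each RefSeq transcript. The authors' RPKM uses transcript length and 1 total per library. Transcripts of one gene often hold nearly the same counts, so each gene was read from its transcript of highest summed count.

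Counts were tested with edgeR 4.0.16 (R 4.3.3; TMM, quasi-likelihood, two-sided) over genes averaging 1 RPKM or more, with a threshold of 0.05. Standard errors were derived from the F statistic and the log2 fold change. The prior degrees of freedom were 12. The code was tested on simulated data. Nothing states separate cultures, so p-values measure only the spread between libraries, which may be technical. Intervals on ratios are exact binomial (scipy 1.17.1). GC content came from GENCODE 29 transcripts matched by RefSeq accession, with the lowess of statsmodels 0.14.6. DESeq2 1.42.0, limma 3.58.1, other filters, scalings, pseudocounts, the longest transcript and each siCDCA3 library left out were alternatives.

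All 38 genes are named. Of the other pathway genes, those passing edgeR and the 3 with the largest fold change in each direction are named, except 1 that is not reported here. The members and lists were chosen with earlier results of these data known.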

Additional observations from a re-analysis of the deposited data

How the results depend on the processing

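The count of genes passing the test was 0 of 38 under DESeq2, limma, median-of-ratios scaling, no filter on low values, the longest transcript and an adjusted threshold of 0.10, and 0 of the 27 genes left by a mean RPKM of at least 5. Few of all genes passed at 0.05 in these fits, at most 4 higher and 18 lower of 18761, without the filter. No paired analysis was possible because siNC is a single library. The medians of the 38 genes kept their sign with pseudocounts of 0.1 and 0.5, with both rescalings, with the longest transcript and after subtraction of the GC trend, but the trend took siCDCA3-1 minus siCDCA3-2 to -0.27. The 1 gene at least 1.5-fold from siNC in both siCDCA3 libraries became 0 with TMM rescaling, with median-of-ratios rescaling and at 2-fold. In siCDCA3-1 alone 5 genes met the size, where 3.92% of all genes were higher and 7.22% lower. In siCDCA3-2 alone 10 did, where 9.6% of all genes were higher and 9.63% lower. The 4 genes at least 1.5-fold lower in siCDCA3-1 than in siNC became 1 with either rescaling and 0 with the GC trend. Of all genes, 5.64% met that size with TMM rescaling, 5.69% with median-of-ratios rescaling and 5.47% with the GC trend. The trend also took the 15 genes lower in siCDCA3-1 than in siCDCA3-2 to 9, and the 2 higher ones to 1, where 10.6% and 11.8% of all genes met the size. Against the edgeR log2 fold change, CDC6 turned to -0.060 in limma and -0.048 without a filter, and CHAF1A (-0.0096) and HELLS (-0.0073) turned without a filter. Leaving out siCDCA3-1 turned the sign of 8 of the 38 fold changes, such as MCM2 (-0.25), and leaving out siCDCA3-2 turned 15, such as CCNE2 (-0.66), RRM2 (-0.35), E2F8 (-0.34) and CDC45 (-0.30), with no residual degrees of freedom for a test. The cause was not tested. The GC trend and the rescaled counts for single comparisons were chosen after seeing the data. Comparisons with siNC rest on a single siNC library.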
